A study of Rattus norvegicus with 4 samples.

Results

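The 10 genes of secreted matricellular and adhesive matrix proteins described here were followed in the RNA-seq of cultured rat Schwann cells (SCs) with and without expression of the Egr2-AS. They are periostin (Postn), transforming growth factor beta induced (Tgfbi), the thrombospondins Thbs1 and Thbs2, tenascin C (Tnc), Sparc and its relative Sparcl1, osteopontin (Spp1), fibronectin (Fn1) and versican (Vcan). All 10 were found by symbol among the 17949 genes of the count table, and all 10 reached the minimum for testing (10 counts in 2 or more samples), as did 12446 genes in all. Postn and Tgfbi were chosen because they were lower after expression of the Egr2-AS in these same samples, so their difference is described here without a test and their p-values are left out. The other 8 were listed for their family, but they and the related lists below were drawn up with earlier results of these data known. Their p-values take no account of that. Primary SCs labelled as coming from rat sciatic nerve, and kept in DMEM with 10% FBS, 4 μM forskolin and 5 ng/ml heregulin-β1, were infected for 48 h at 2 UFC/cell with polybrene. The Lenti-AS group (n = 2) received a virus for the Egr2-AS, the antisense RNA of the Egr2 promoter, in a vector with a DsRed reporter, and the Lenti-GFP group (n = 2) the backbone virus with an AcGFP reporter, so the reporter also differs between the groups. Strain, sex and age of the animals were not given in the sources used here, and the labels speak of biological replicates without saying whether these were separate cultures or animals, so that p-values measure the spread between these samples, which may be technical.

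Matricellular proteins are secreted into the extracellular matrix, where they mostly modulate how cells adhere, move and respond to growth factors rather than build the scaffold. They act largely through integrins, syndecans and CD44, and several of them bind one another or collagen. Periostin and the TGFBI protein are close relatives that share fasciclin domains, and both genes are classical targets of TGF-beta. In peripheral nerve, tenascin C, thrombospondins, osteopontin, periostin and fibronectin are known from the matrix through which SCs and axons grow after injury.

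Total counts lay between 74024323 and 96185890 per sample. Of the 12 SC markers, 11 were matched and 10 of these had at least 1 CPM (counts per 1000000 counts, on library sizes scaled by the TMM method) in every sample. The exception was Gap43, under 1 CPM in all samples. No count is listed for the Egr2-AS itself, so the labels could not be checked by its level. Globin genes stood apart in Lenti-AS 2, where their summed level was 3001 CPM against 3.09 to 6.61 CPM in the other 3 samples, and calls that changed without that sample are given below. Leaving out a sample leaves 1 in its group, and the spread then comes from the other group alone. A gene is called where edgeR's quasi-likelihood test gives a Benjamini-Hochberg adjusted p below 0.05 and the fitted change is 1.3-fold or more. By this rule 83 genes were lower and 163 higher in Lenti-AS.

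The start regions of Tnc, Postn and Tgfbi are shown because these genes had the lowest fitted fold changes of the 10. They are the 250 bases before the RefSeq start in the GRCr8 assembly, a later build than the rn6 build of the counts, from chr5:82476132-82476381 on the minus strand, chr2:140677811-140678060 on the plus strand and chr17:7990114-7990363 on the minus strand. Each is written 5′ to 3′ along the gene, and capitals mark matches to the motifs searched. Among them are a SMAD motif (CAGACA, read as TGTCTG on the opposite strand in Tnc) and the TATA box letters TATAAA. Only these exact letters were marked, so the letters tatataa near the start of Tnc stay in lower case.
Tnc: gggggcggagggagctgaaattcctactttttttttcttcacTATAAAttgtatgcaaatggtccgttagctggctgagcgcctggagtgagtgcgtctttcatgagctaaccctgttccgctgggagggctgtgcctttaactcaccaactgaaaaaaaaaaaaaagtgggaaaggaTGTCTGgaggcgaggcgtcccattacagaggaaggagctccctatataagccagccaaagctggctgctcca
Postn: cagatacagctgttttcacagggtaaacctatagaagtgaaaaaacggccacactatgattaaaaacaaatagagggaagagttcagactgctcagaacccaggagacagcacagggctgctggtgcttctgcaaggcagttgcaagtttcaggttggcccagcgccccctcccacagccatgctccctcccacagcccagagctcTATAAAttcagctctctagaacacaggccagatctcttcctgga
Tgfbi: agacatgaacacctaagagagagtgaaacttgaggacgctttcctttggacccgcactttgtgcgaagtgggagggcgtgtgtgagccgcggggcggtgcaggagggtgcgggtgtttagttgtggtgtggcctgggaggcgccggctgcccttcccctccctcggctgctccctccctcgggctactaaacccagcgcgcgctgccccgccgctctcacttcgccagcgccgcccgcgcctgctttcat

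Motifs were searched on both strands of the 300 bases from 250 before to 50 after the start, in the 8 of the 10 genes with an entry in the table. Vcan has 2 entries, and both were searched. The AP-1 motif TGACTCA, whose reverse complement is TGAGTCA, was in 0 of the 8 genes and in 4.63% of all 33469 promoters. The TATA box letters were in Postn, where they begin at position -44 from the annotated start, in Tnc at position -208 and in Spp1 at position -204, against 14.2% of all promoters. The SMAD motif CAGACA was in Tnc and Sparc (21.1% of all promoters), the TEAD motif CATTCC in Sparc and Thbs1 (14.2%), and the YY1 motif GCCATNT in 0 of the 8 (15.3%). The 250 bases shown for Tgfbi held none of these letters. A match is a description of these letters and not evidence of a bound site.

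Of the 8 genes not chosen by their values, 1 (Tnc) was called lower in Lenti-AS and 0 were called higher by edgeR. Over all genes tested 0.667% were called lower and 1.31% higher (1.98% in either direction). At an unadjusted p under 0.05, 1 of the 8 (Spp1) was higher and 2 (Tnc and Thbs1) were lower, against 21.8% of all genes tested in either direction, and DESeq2 and limma-voom called 0 of them higher. Both Lenti-AS samples lay below both Lenti-GFP samples for Tnc, Postn, Tgfbi, Thbs1 and Sparc and above them for Spp1 and Fn1, arrangements found in 27.2% and 27.7% of all genes tested. The reads of all 10 genes together made up 1.48% and 1.49% of the counts in the Lenti-GFP samples and 1.10% in each Lenti-AS sample. This sum includes Postn and Tgfbi, which were chosen for their fall, so its difference in part restates that choice. Tnc, Postn and Tgfbi, set apart here by their fall in these same samples, summed to 8734 and 9003 CPM in Lenti-GFP and 5198 and 5149 CPM in Lenti-AS. The other 7 summed to 6151 and 6115 CPM and to 5712 and 5661 CPM. As the split was made by the fall, the larger difference in Tnc, Postn and Tgfbi restates it. In bulk RNA, fewer cells that make a transcript and less of it per cell cannot be told apart.

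**Figure D1:**
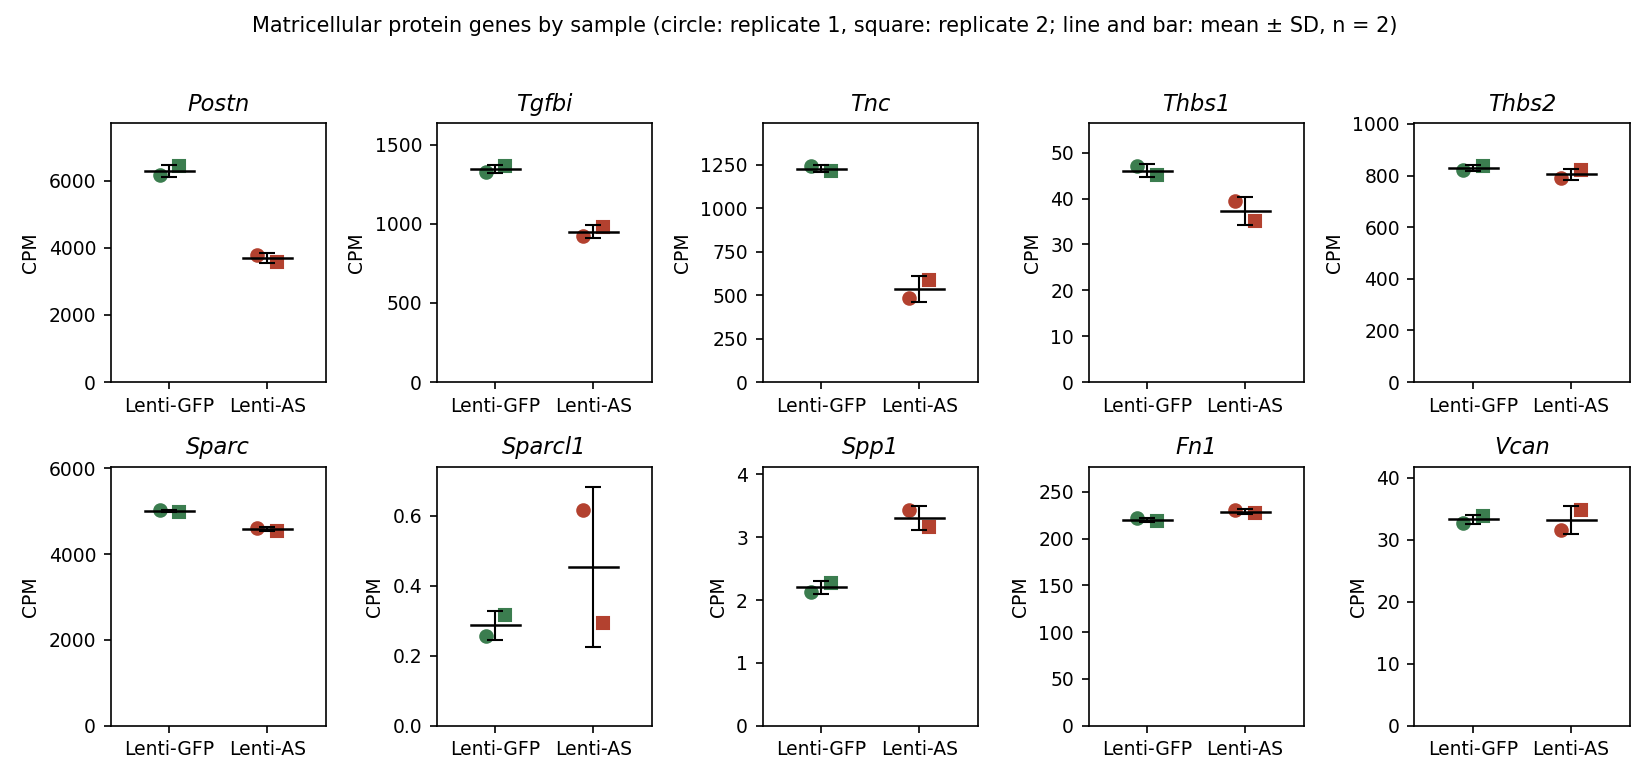
Level of each of the 10 genes in every sample, in CPM on axes that start at 0, with the Lenti-GFP samples in green, the Lenti-AS samples in red and the group mean ± SD (n = 2) in black. For Tnc, Postn and Tgfbi both Lenti-AS samples lie below both Lenti-GFP samples by more than either pair of replicates differs. The same holds at smaller gaps for Thbs1 (1.14-fold) and Sparc (1.08-fold), and above Lenti-GFP for Spp1 (1.40-fold) and Fn1 (1.02-fold). The groups do not overlap in 54.9% of all genes tested.

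Tenascin C, an oligomeric glycoprotein that modulates cell adhesion to fibronectin and is induced in injured nerve, showed the largest fall of the 10 in the fit. Tnc had 1242 and 1214 CPM in Lenti-GFP and 482 and 589 CPM in Lenti-AS, from 115911, 115077, 42257 and 44245 counts. The lowest Lenti-GFP sample was 2.06 times the highest Lenti-AS sample, while the Lenti-GFP samples differed 1.02-fold and the Lenti-AS samples 1.22-fold. Means were 1228 ± 19.5 CPM for Lenti-GFP and 535 ± 75.3 CPM for Lenti-AS (± SD, n = 2 each). The fitted log2 fold change was -1.20 (standard error 0.10, 95% interval -1.44 to -0.96), a level of 0.436 of that in Lenti-GFP, with an adjusted p = 0.0144 by edgeR's quasi-likelihood test over the 12446 genes. Over the 11 alternative settings the fold change kept its direction, with log2 values from -1.35 to -1.06, and adjusted p-values ran from 1.91e-29 to 0.147. The call was lost without Lenti-GFP 1 (log2 fold change -1.18) and without Lenti-GFP 2 (log2 fold change -1.21), as were nearly all calls over the genes tested. In those fits the lone Lenti-GFP sample is assumed to vary like the Lenti-AS samples.

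Periostin, a fasciclin protein that binds integrins, collagen I, fibronectin and tenascin C, had a lower level in both Lenti-AS samples. Postn had 6165 and 6426 CPM in Lenti-GFP and 3795 and 3579 CPM in Lenti-AS, from 575606, 609113, 332660 and 269102 counts. Replicates differed 1.04-fold and 1.06-fold, and the nearest samples of the groups 1.63-fold. Means were 6295 ± 184 CPM and 3687 ± 153 CPM (± SD, n = 2 each), and the fitted log2 fold change was -0.77, a change of -41.4%. Its reads were 0.612% and 0.633% of all counts in Lenti-GFP and 0.382% and 0.364% in Lenti-AS.

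The TGFBI protein, the relative of periostin that carries the same kind of domains and also binds collagen and integrins, was lower to a smaller extent. Tgfbi had 1327 and 1363 CPM in Lenti-GFP and 921 and 981 CPM in Lenti-AS, so that the groups did not overlap. The means were 1345 ± 25.3 CPM and 951 ± 42.6 CPM (± SD, n = 2 each), and the fitted log2 fold change was -0.50, a change of -29.3%. Within a library, there were 21.5 and 21.2 Tgfbi reads per 100 Postn reads in Lenti-GFP and 24.3 and 27.4 in Lenti-AS, and 20.1 and 18.9 Tnc reads per 100 Postn reads in Lenti-GFP against 12.7 and 16.4 in Lenti-AS.

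The thrombospondins are adhesive glycoproteins, and thrombospondin 1 is known as an activator of latent TGF-beta. Thbs1 had 47.1 and 45.1 CPM in Lenti-GFP and 39.5 and 35.1 CPM in Lenti-AS. The groups did not overlap, with a log2 fold change of -0.31 (standard error 0.08, interval -0.51 to -0.10), but the difference did not pass the test (adjusted p = 0.119, edgeR). By DESeq2 on all samples Thbs1 had an adjusted p = 0.0231, but its log2 fold change of -0.31 fell short of 1.3-fold. Without Lenti-AS 1 the log2 fold change was -0.39 and it was called (adjusted p = 0.000249, edgeR), with the lone Lenti-AS sample assumed to vary like the Lenti-GFP samples. Over the 11 settings its adjusted p-values ran from there to 0.615 (edgeR, DESeq2 or limma-voom). Thbs2 had 820 and 836 CPM in Lenti-GFP and 789 and 821 CPM in Lenti-AS, where the groups overlapped. Its fitted change was -2.79% with a 95% interval from -11.1% to 6.28%, so a fall as large as that of Tnc lies outside the interval. There were 5.74 and 5.39 Thbs1 reads per 100 Thbs2 reads in Lenti-GFP and 5.00 and 4.27 in Lenti-AS.

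Sparc, a collagen-binding counter-adhesive glycoprotein, had 5026 and 4979 CPM in Lenti-GFP and 4617 and 4541 CPM in Lenti-AS. The groups did not overlap, as in 54.9% of all genes tested, but the difference was small, at -8.48% (95% interval -16.4% to 0.193%), and did not pass the test (adjusted p = 0.236, edgeR). Because Postn was lower and Sparc differed little, there were 81.5 and 77.5 Sparc reads per 100 Postn reads in Lenti-GFP and 122 and 127 in Lenti-AS. Sparcl1, the relative of Sparc also called hevin, was near the limit of the data, with 24 and 30 counts in Lenti-GFP and 54 and 22 counts in Lenti-AS. Its Lenti-AS samples differed 2.10-fold, one above and one within the range of Lenti-GFP, and no difference was detectable at this depth (log2 fold change 0.67, interval -0.45 to 1.80).

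Osteopontin, a phosphorylated integrin and CD44 ligand, was the one gene of the 10 besides Sparcl1 and Fn1 with a fitted level above Lenti-GFP. Spp1 had 2.13 and 2.27 CPM in Lenti-GFP and 3.43 and 3.17 CPM in Lenti-AS, from 199, 215, 301 and 238 counts. The samples did not overlap and the log2 fold change was 0.59 (standard error 0.17, interval 0.17 to 1.00), but the adjusted p was 0.133 by edgeR, and 0.0215 to 0.681 over the 11 alternative settings. It was called in the setting without Lenti-AS 2, again with 1 Lenti-AS sample, where the adjusted p was 0.0215 (edgeR).

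Fibronectin, the adhesive scaffold protein that tenascin C and periostin bind, and versican, a large chondroitin sulfate proteoglycan, were close to even between the groups. Fn1 had 222 and 218 CPM in Lenti-GFP and 231 and 227 CPM in Lenti-AS, a change of 3.89% with an interval from -4.61% to 13.2% (adjusted p = 0.555, edgeR). The replicates of each group differed 1.01-fold to 1.02-fold. Vcan had 32.8 and 33.8 CPM in Lenti-GFP and 31.6 and 34.8 CPM in Lenti-AS, so that the Lenti-AS samples lay on either side of the Lenti-GFP samples. Its fitted change was -0.322% (interval -12.2% to 13.2%, adjusted p = 0.978, edgeR). With library totals in place of TMM factors its sign turned, at a log2 fold change of 0.0275.

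**Figure D2:**
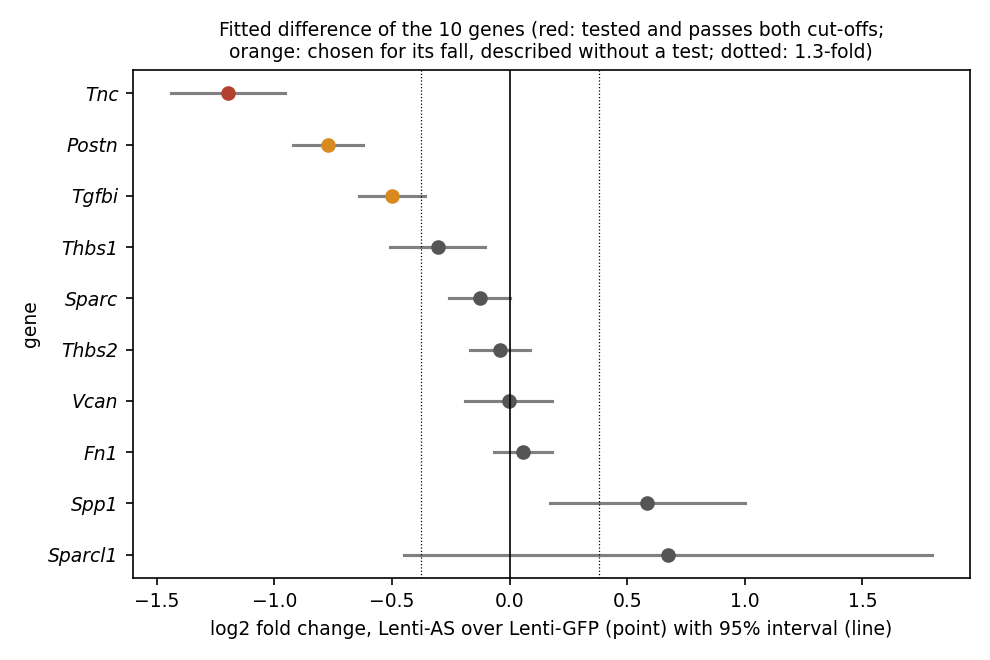
Fitted log2 fold change of the 10 genes, Lenti-AS over Lenti-GFP, as points with 95% intervals from the quasi-likelihood fit, ordered from Tnc at -1.20 to Sparcl1 at 0.67. Tnc is red as the gene called by the test, and the dotted lines mark a 1.3-fold change. Postn and Tgfbi are orange because they were chosen for this difference. Their intervals take no account of that choice and are not read as a test.

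To set these genes beside the rest of their family, 31 other matricellular and fasciclin, fibulin or galectin genes were listed, of which 27 were matched and 23 tested. Of these, 2 were called lower and 0 higher, against 0.667% and 1.31% of all genes tested. Both were secreted matrix proteins. Fstl1, a follistatin-like protein of the SPARC family, fell from 848 and 883 CPM in Lenti-GFP to 569 and 596 CPM in Lenti-AS, a log2 fold change of -0.57 (standard error 0.06) with adjusted p = 0.0191 (edgeR). Fbln5, a fibulin needed to assemble elastic fibers, fell from 312 and 291 CPM to 192 and 210 CPM (log2 fold change -0.59, standard error 0.07, adjusted p = 0.0252, edgeR). Both calls were lost with either Lenti-GFP sample left out, at log2 fold changes from -0.63 to -0.53. Nearly all calls over the genes tested were lost in those fits, so the loss is not particular to Fstl1 and Fbln5. Without Lenti-AS 2 the list had 1 gene called higher and 3 lower, and without Lenti-AS 1 it had 1 and 4. The median log2 fold change of the list was 0.02 against 0.01 over all genes tested, and the groups did not overlap for 11 of its 23 genes, against 54.9% of all genes tested. The galectin gene Lgals1, among the 2 most read genes of the list with Fstl1, had 1491 and 1547 CPM in Lenti-GFP and 1500 and 1446 CPM in Lenti-AS.

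The CCN genes, named here after their values had been seen, are matricellular genes, of which Ccn1 and Ccn2 are known to respond to TGF-beta and to YAP. Ccn1 had 358 and 312 CPM in Lenti-GFP and 243 and 271 CPM in Lenti-AS (log2 fold change -0.38, adjusted p = 0.0905, edgeR), and Ccn2 had 51.8 and 52.3 CPM against 42.1 and 30.8 CPM (log2 fold change -0.51, adjusted p = 0.129, edgeR). In both genes the Lenti-AS samples were the lower, without passing the test. Ccn3 lay on the other side, at 24.9 and 25.7 CPM in Lenti-GFP and 26.8 and 30.1 CPM in Lenti-AS (log2 fold change 0.17, adjusted p = 0.276, edgeR), and Ccn4, Ccn5 and Ccn6 were under 0.4 CPM in every sample. Thbs4, a thrombospondin, had 0.857 and 1.03 CPM in Lenti-GFP and 2.07 and 2.38 CPM in Lenti-AS (log2 fold change 1.23, adjusted p = 0.0574, edgeR), and Thbs3 had 45.9 and 43.4 CPM against 43.8 and 49.9 CPM. The tenascin relatives were low. Tnn had 0.718 and 0.612 CPM in Lenti-GFP and 0.342 and 0.226 CPM in Lenti-AS, from 67, 58, 30 and 17 counts (log2 fold change -1.21, adjusted p = 0.134, edgeR). Tnr lay on the other side, at 0.0857 and 0.116 CPM in Lenti-GFP and 0.205 and 0.146 CPM in Lenti-AS (log2 fold change 0.80, adjusted p = 0.387, edgeR).

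Among the receptors of these proteins (integrin chains, syndecans, Cd36, Cd44, Cd47, Lrp1, Ptprz1 and Calr), 21 of 25 listed were matched and 19 were tested. By edgeR 0 were called in either direction, against 1.98% of all genes tested. At an unadjusted p under 0.05 there were 2 higher and 6 lower (21.8% of all genes tested in either direction), and DESeq2 called 0 higher and 1 lower. Without Lenti-AS 2, 1 was called higher and 1 lower. Their median log2 fold change was -0.01. The most read were the laminin-binding chain Itga6, at 1613 and 1753 CPM in Lenti-GFP and 1875 and 1907 CPM in Lenti-AS, and the TGF-beta-activating chain Itgb8, at 1641 and 1702 CPM against 1441 and 1507 CPM. Other receptor genes, chosen after their values were seen, had adjusted p-values not far above 0.05. Sdc4, a heparan sulfate co-receptor for fibronectin, had 558 and 588 CPM in Lenti-GFP and 461 and 464 CPM in Lenti-AS (log2 fold change -0.31, adjusted p = 0.0520, edgeR). The syndecan gene Sdc2 had 62.37 and 64.15 CPM against 49.64 and 50.4 CPM (log2 fold change -0.34, adjusted p = 0.0666, edgeR). Both changes were under 1.3-fold, so neither gene would be called at any p. Itga4, an integrin chain that binds fibronectin and osteopontin, had 70.5 and 72.9 CPM against 50.3 and 57.4 CPM (log2 fold change -0.41, adjusted p = 0.0768, edgeR). The chain Itgav, a partner in the main periostin receptors, was not analysed here.

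Of the 29 collagens and enzymes that bind or modify these proteins, 27 were matched and 24 tested. Over all genes tested 0.667% were called lower and 1.31% higher, and of these 24 genes 0 were called higher and 1 lower. This was Col5a2, a chain of the fibril collagen V, at 3740 and 3781 CPM in Lenti-GFP and 2784 and 2739 CPM in Lenti-AS, a log2 fold change of -0.45 (standard error 0.05) with adjusted p = 0.0252 (edgeR). Its call was lost without Lenti-GFP 1 (log2 fold change -0.45) and without Lenti-GFP 2 (log2 fold change -0.44), as were nearly all calls over the genes tested. Without Lenti-AS 2 the list had 3 genes called higher and 2 lower, and without Lenti-AS 1 it had 1 and 2. Col3a1, the fibril collagen III gene and with Col5a2 the most read of the list, had 3260 and 2955 CPM in Lenti-GFP and 2198 and 2400 CPM in Lenti-AS (adjusted p = 0.0520, edgeR). The median of the list was 0.10. Bmp1, the protease that works with periostin in the activation of lysyl oxidase, had 308 and 288 CPM in Lenti-GFP and 280 and 323 CPM in Lenti-AS, and Lox itself was under 0.5 CPM in every sample. Adamts5, a versican-cleaving protease, had 284 and 306 CPM in Lenti-GFP and 371 and 401 CPM in Lenti-AS (adjusted p = 0.0506, edgeR). Bmp1, Lox and Adamts5 were also chosen after their values were seen.

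TGF-beta induces Postn and Tgfbi in many cells, and 21 of its ligands, receptors, SMADs, latent binding proteins and response genes were listed. Of the 19 matched, all were tested and 0 were called in either direction, against 1.98% of all genes tested. Their median log2 fold change was -0.11. At an unadjusted p under 0.05 by edgeR there were 1 higher and 4 lower (21.8% of all genes tested in either direction), and DESeq2 called 1 higher and 1 lower. Without Lenti-AS 2, 5 were called higher and 2 lower, and without Lenti-AS 1, 0 higher and 2 lower. The receptor gene Tgfbr2 had 475 and 493 CPM in Lenti-GFP and 464 and 523 CPM in Lenti-AS, and Smad4, the common SMAD, 192 and 190 CPM against 164 and 189 CPM.

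**Figure D3:**
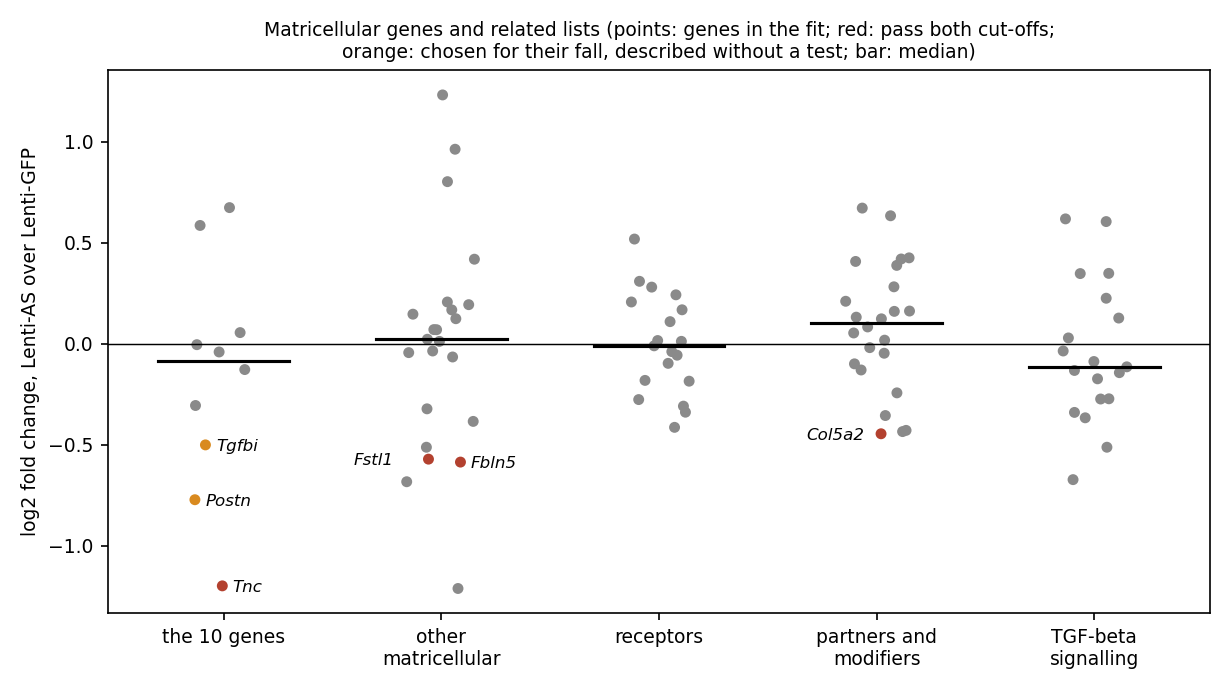
Fitted log2 fold changes, Lenti-AS over Lenti-GFP, of the 10 genes and of the genes tested in the 4 related lists, with a bar at each median. Fstl1, Fbln5 and Col5a2 are called lower in the lists (red) beside Tnc, no gene of the 5 sets is called higher, and the medians lie between -0.11 and 0.10.

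Against the mean of the Lenti-GFP samples, Tnc was at 0.393 in Lenti-AS 1 and 0.479 in Lenti-AS 2, Postn at 0.603 and 0.569, and Tgfbi at 0.684 and 0.729. A difference above 2-fold separated the Lenti-AS samples for 188 of the 10251 genes whose mean reached 1 CPM, and the Lenti-GFP samples for 9. In the 4 related lists 5 such genes did, both collagen I chains among them, and 8 did with no minimum level. Of the 10 genes Sparcl1, whose mean was under 1 CPM, did.

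**Figure D4:**
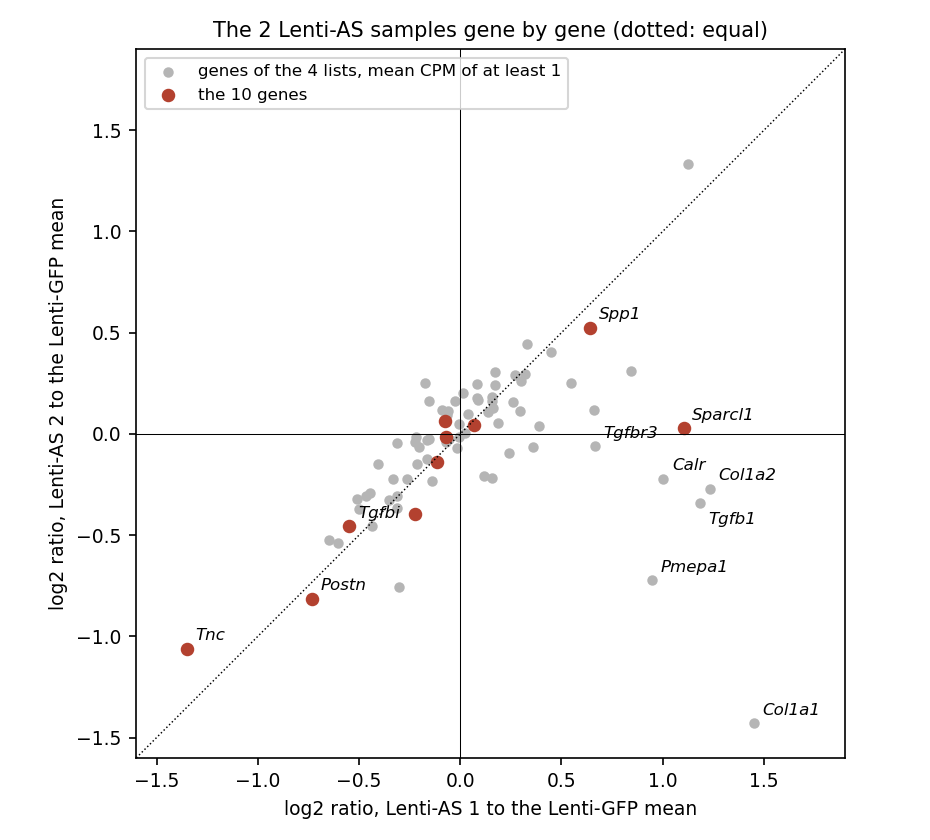
Log2 ratio of Lenti-AS 1 (x axis) and Lenti-AS 2 (y axis) to the Lenti-GFP mean for the 10 genes (red) and for genes of the 4 lists whose mean reached 1 CPM (grey), with the line of equal ratios dotted. Tnc, Postn and Tgfbi lie near the line below 0 on both axes, whereas Col1a1 is above the Lenti-GFP mean in Lenti-AS 1 and below it in Lenti-AS 2.

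Genes whose levels over the 4 samples lay nearest to Postn, by Euclidean distance of log2(CPM + 1) centered on the Lenti-GFP mean among 7801 other genes whose mean reached 10 CPM, were Sfrp4, Slitrk6, Fibin, Mest and Tnfaip6. Sfrp4, a secreted Wnt antagonist, was the closest (distance 0.0248), with 27.9 and 29.5 CPM in Lenti-GFP and 17.1 and 15.9 CPM in Lenti-AS. Mest, an imprinted gene, had 268 and 275 CPM against 152 and 158 CPM, and Tnfaip6, a secreted hyaluronan-binding protein, 298 and 301 CPM against 172 and 159 CPM. Nearest to Tgfbi were Galnt10, Rassf1, Sept4, Cemip2 and Abca8a, at distances from 0.0477 to 0.0722. Cemip2, a cell surface hyaluronidase, had 415 and 421 CPM in Lenti-GFP and 273 and 301 CPM in Lenti-AS. With 4 samples in 2 groups, such closeness mostly restates a fall of like size.

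Markers of other cells that make matricellular proteins were read beside these results. Of 12 fibroblast markers, 11 were matched and 4 were under 1 CPM in all samples. These were Dcn, Lum, Thy1 and Dpt, which reached at most 0.0321 CPM in any sample. The other 7 had at least 1 CPM in every sample. Among them Pdgfrb had 224.5 to 279 CPM, and Pdgfra, Pi16 and Mfap5 lay between 3.085 and 5.237 CPM. The summed level of the fibroblast list, nearly all of it collagen I and III, was 4529 and 4057 CPM in Lenti-GFP and 4906 and 3101 CPM in Lenti-AS, so it did not separate the groups. Of the 10 macrophage markers 8 were under 1 CPM in all samples, with a summed level of 3.60 and 3.63 CPM in Lenti-GFP and 4.20 and 4.43 CPM in Lenti-AS. The 8 endothelial markers summed to 21.3 and 21.2 CPM in Lenti-GFP and 16.36 and 15.99 CPM in Lenti-AS, mostly from Tek, with 7 under 1 CPM, and the 8 mural cell markers, 3 of them under 1 CPM, to 30.5 and 30.3 CPM against 28.9 and 25.2 CPM. The SC markers summed to 10310 and 10240 CPM in Lenti-GFP and 12220 and 11180 CPM in Lenti-AS, and the 6 perineurial markers, 3 of them under 1 CPM, to 375 and 369 CPM against 412 and 433 CPM. The part of these shifts in the results for Tnc, Postn and Tgfbi was not tested.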

How the data were processed

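RNA-seq of 4 samples of rat SCs (2 Lenti-GFP, 2 Lenti-AS) was analysed from 1 table. The authors extracted total RNA, sequenced 50 bp paired-end libraries, aligned them to rn6 (hisat2 in the paper's methods, GSNAP in the submitters' processing notes), and deposited whole-number counts per gene from featureCounts over RefSeq exons, without normalization. Strand and multi-mapping settings are not given in the sources used here. One repeated header row was dropped.

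Samples were grouped by their labels. The 12446 genes that reached 10 counts in 2 or more samples were fitted by edgeR 4.0.16 under R 4.3.3 (TMM, glmQLFit, glmQLFTest, no replicate term), with Benjamini-Hochberg adjustment over all of them. Standard errors come from the F statistic and intervals from the fit's degrees of freedom. The common coefficient of variation was 12.1%. Replicates differed by more than sampling noise (chi-square per gene 31.1 for Lenti-GFP and 100.0 for Lenti-AS, where 1 is noise). For 2 samples against 2, the smallest two-sided p of an exact permutation test is 0.333. The script was tested on simulated counts.

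Alternatives were DESeq2 1.42.0, limma-voom (limma 3.58.1), other factors and filters, a replicate block, no fold change limit and leaving out each sample. The genes and lists were chosen with earlier results of these data known. Named genes are the 10 genes, the called and 2 most read genes of each list, and those nearest to Postn and Tgfbi. Every other gene named was chosen after its values were seen. Without transcript lengths, levels were not compared between genes. Promoters are from RefSeq (GRCr8). Protein sequences were not used here.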

Additional observations from a re-analysis of the deposited data

How the results depend on the processing

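In each alternative that kept all samples and fitted fold changes, Tnc, Postn and Tgfbi kept their direction, and the log2 fold change of Postn stayed between -0.77 and -0.74 and that of Tgfbi between -0.50 and -0.47. Over all genes, DESeq2 called 488 higher and 139 lower, and the replicate block 3 and 14. No source ties equal replicate numbers to one culture or day, and the deviations of samples with equal numbers had a correlation of -0.0176 over genes, so the numbers were not taken as pairs. With the replicate block Tnc was called lower (adjusted p = 0.0196, edgeR), and of the lists 0 other matricellular genes and 0 matrix partners, with a median of 0.0566 for the latter. The adjusted p-values were 0.0664 for Fstl1, 0.0796 for Fbln5 and 0.0592 for Col5a2 (edgeR), at log2 fold changes of -0.57, -0.59 and -0.45. Fewer residual degrees of freedom remain in that fit.

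Leaving out each sample in turn gave 0 to 1260 genes higher and 1 to 278 lower, with 0 to 1 of the 10 genes higher and 0 to 4 lower, a count that includes the pair chosen for their fall. Without Lenti-GFP 1 or Lenti-GFP 2 there were 0 calls higher and 1 lower in all, none of them among the 10 genes. The ranges of log2 fold changes were -0.82 to -0.73 for Postn, -0.55 to -0.46 for Tgfbi, -1.35 to -1.06 for Tnc, -0.39 to -0.22 for Thbs1 and 0.52 to 0.64 for Spp1. Vcan, near 0, ranged from -0.0758 to 0.0628, turning sign without Lenti-GFP 2 (0.0189) and without Lenti-AS 1 (0.0628), and was 0.0275 with library totals. Counts called higher and lower were 0 to 1 and 0 to 4 for other matricellular genes, 0 to 1 and 0 to 1 for receptors, 0 to 3 and 0 to 2 for matrix partners, and 0 to 5 and 0 to 2 for the TGF-beta list. List medians ran from -0.0516 to 0.0978, -0.0565 to 0.0196, 0.0083 to 0.147 and -0.152 to -0.103, and that of all genes tested from -0.0037 to 0.0134. The median of the other matricellular list was -0.0516 without Lenti-GFP 2, and that of all genes tested -0.0037 without Lenti-AS 2.

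DESeq2 called 1 higher and 4 lower among other matricellular genes, 1 receptor lower, 2 and 2 matrix partners, and 1 and 1 of the TGF-beta list. Matrix partners called lower were 2 with limma-voom, RLE factors and no filter, and 1 was called higher with library totals and with no filter. Another matricellular gene (1) was called higher with no filter and with a minimum of 1 CPM. The matrix median was 0.0510 with limma-voom, and the TGF-beta median -0.0821 with library totals and -0.0846 with that minimum. Library totals moved the median of all genes to 0.04. Other than by the samples left out, the cause of these shifts was not tested.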

Other observations

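The Lenti-AS samples disagreed on some matrix and SC genes that the comparison above leaves uncalled. Col1a1, the alpha 1 chain of collagen I, had 840 and 721 CPM in Lenti-GFP, 2131 CPM in Lenti-AS 1 and 290 CPM in Lenti-AS 2, a 7.35-fold difference between the Lenti-AS samples. Col1a2, the partner chain, had 340 CPM in Lenti-AS 1 and 120 CPM in Lenti-AS 2 against 155 and 133 CPM in Lenti-GFP. The ligand gene Tgfb1 had 7.07 and 2.46 CPM in the Lenti-AS samples and 3.47 and 2.76 CPM in Lenti-GFP, and Pmepa1, a feedback inhibitor of TGF-beta signaling, 9.32 and 2.93 CPM against 4.91 and 4.75 CPM. The chaperone gene Calr had 246 and 105 CPM against 122 and 123 CPM.

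Lenti-AS 1 was also the higher sample for Sox10, a transcription factor of SC identity, at 163 CPM against 61.2 CPM in Lenti-AS 2 and 77.1 and 72.6 CPM in Lenti-GFP. These genes were chosen after their values were seen.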
